A study of Mus musculus with 4 samples.

Results

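The chromatin-modifying enzymes described here are 58 of the 23259 genes with a value in RNA profiles of mouse macrophages. They were chosen by symbol, not by level: every histone deacetylase, sirtuin, lysine demethylase, Kat, Setd, Brd or Tet gene listed by a numbered symbol, with Dnmt1, Dnmt3a, Dnmt3b, Ezh1, Ezh2, Ep300 and Crebbp. The rule leaves out 4 symbols of these families, which were not analysed here. The macrophages were grown from the marrow of C57BL/6 mice 7 weeks of age and all were given IL-4, a cytokine of allergic and anti-parasite immunity, for 24 h. Of the 4 libraries, 2 carry the genotype label wild type and 2 the label Sema6D-/-, in which the gene for the membrane protein Sema6D is disrupted. No library without IL-4 was analysed here. The labels do not say how the allele was made, nor that replicate libraries were drawn from different animals or dishes. The p-values therefore reflect library-to-library spread alone, which may be technical.

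The titles of the wild type libraries start with K and those of the Sema6D-/- libraries with W, although W is the initial of wild type. Directions in the text follow the genotype labels. Sema6d itself was listed at 0.166 and 0.389 FPKM (fragments scaled by transcript length and library size) in the libraries labelled wild type and at 0.106 and 0.315 in those labelled Sema6D-/-, so its ranges overlap and it does not check the labels. Depth estimated from the smallest steps between values was about 8300000 to 9300000 fragments per library, and 1 fragment on 1 kb of transcript is then worth 0.107 to 0.12 FPKM. Macrophage markers summed to 5888 and 5600 FPKM in the wild type libraries and to 5270 and 5303 under Sema6D-/-, with 1 of 8 tested genes higher and 3 lower. The median difference of these 8 was -0.238 in log2(FPKM + 1), and the genes called lower are not named here. The higher gene was Emr1, the F4/80 antigen, at 339 and 326 against 481 and 459 FPKM (adjusted p = 0.0056). Csf1r, the receptor for the growth factor that macrophages need, was at 545 and 561 against 511 and 519 and was not called (adjusted p = 0.213), nor was Cd68 at 1325 and 1193 against 1551 and 1519 (adjusted p = 0.0532). Neutrophil markers summed to 272 and 293 FPKM in the wild type libraries and to 668 and 808 under Sema6D-/-, and 6 of their 11 tested genes were higher and 2 lower. Lymphocyte and erythroid markers summed to at most 2.4 and 0.301 FPKM in any library, and the B cell gene Pax5 and the natural killer cell gene Ncr1 were listed at 0 in all 4. Mast cell and basophil markers summed to 1.23 and 1.74 against 5.97 and 10.8, dendritic cell markers to 404 and 410 against 306 and 321, and stromal markers to 4.51 and 9.05 against 4.96 and 6.01. Only 2 of the 7 dendritic cell markers were tested, 1 of them lower, and 1 gene made up most of that sum in each library. The part that other cells play in any difference below was not tested, and in bulk RNA fewer cells of a type cannot be told apart from less RNA per cell.

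Chromatin enzymes write, read and erase chemical marks on histones and DNA. Acetyl groups are added by acetyltransferases, bound by bromodomain proteins and removed by histone deacetylases and sirtuins, while methyl groups are added by Setd and Ezh enzymes and removed by lysine demethylases. DNA methyltransferases place methyl groups on cytosine in CpG pairs, and Tet dioxygenases oxidise them. In macrophages exposed to IL-4, the transcription factor STAT6 is known to induce Kdm6b, a demethylase that erases the repressive mark laid down by Ezh enzymes, and Kdm6b is known to act at genes of alternative activation.

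Few of these enzymes were called different between the labels. Dnmt1, the maintenance DNA methyltransferase, fell and Sirt2, an NAD-dependent deacetylase, rose in the libraries labelled Sema6D-/-. These were the 2 members called among 54 tested (adjusted p under 0.05 by limma), a share of 3.7%, where 9.72% of all 10115 genes tested were called, 4.8% higher and 4.91% lower. The other 4 members, Dnmt3b, Hdac11, Kdm4d and Tet1, averaged under 1 FPKM and were not tested. At an unadjusted p under 0.05 there were 8 members (14.8%) and 2535 of all genes tested (25.1%). The largest difference of a member was 0.35 in log2(FPKM + 1), and 0 members exceeded 0.5, which 749 of all genes tested (7.4%) did. The median size of the difference was 0.088 for members and 0.112 for all genes tested.

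For most members the interval of the difference between these libraries was also narrow. The 95% interval of the difference lay within 1.5-fold on the scale of FPKM + 1, in both directions, for 51 of 54 members (94.4%) and for 8418 of all genes tested (83.2%). The 3 exceptions were Hdac9 (-0.07 to 0.634), Setd6 (-0.588 to -0.026) and Sirt3 (-0.604 to 0.098), of which Setd6 and Sirt3 were singled out after their values were seen. The median level of tested members was 10.2 FPKM, against 13 for all genes tested.

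Small differences leaned to lower values under the label Sema6D-/-. The difference was below 0 for 35 of 54 members (64.8%) and for 49.1% of all genes tested, with medians of -0.062 and 0.003. Both libraries labelled Sema6D-/- lay under both labelled wild type for 23 members (42.6%), where 27.4% of all genes tested did so. In either direction the libraries did not overlap for 32 members (59.3%), close to the 56.2% of all genes tested. With 1 library left out, the members' median ranged from -0.054 to -0.032. No test of this lean was made, and members were chosen with earlier results of these data known.

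**Figure D1:**
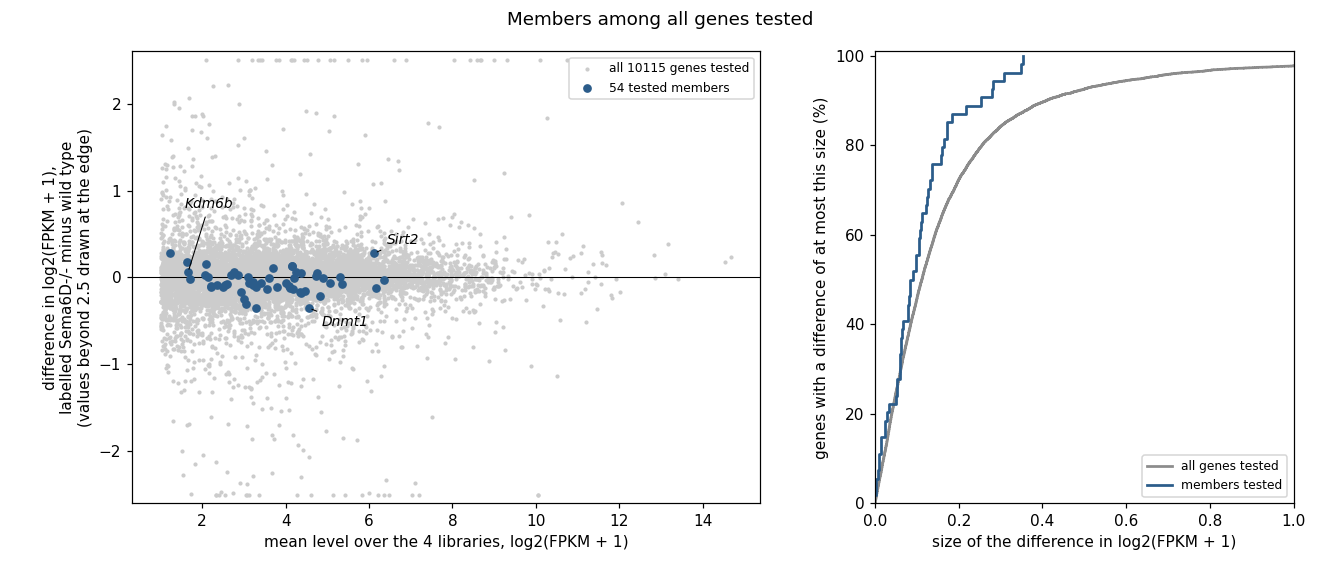
Members among the 10115 genes tested. Left, the difference in log2(FPKM + 1) against the mean level, with each gene a grey point and each of 54 tested members a blue point; right, the cumulative share of genes by size of the difference. The largest difference of a member is -0.353, and Dnmt1 and Sirt2 are the 2 that were called.

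Levels spanned a wide range within every large family. Brd2, a reader of acetylated histones, was the most abundant member at 81.8 ± 0.14 (SD, n = 2) and 80.4 ± 0.10 FPKM under the labels wild type and Sema6D-/-. Dnmt3a (74.5 and 68.3 FPKM) and Sirt2 (62.4 and 75.9) came next and changed places between the labels, followed by Sirt7 (41.3 and 39.0) and Brd7 (38.8 and 38.8). Over all libraries the values of Dnmt3a and Sirt2 overlap, as do those of Sirt7 and Brd7, while Brd2 lay above all 4. At the other end, Tet1 was listed at 0 and 0.0143 FPKM in the wild type libraries and at 0 and 0.00769 under Sema6D-/-, and Kdm4d was listed at 0 in all 4 libraries. Such zeros may be failed estimates.

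**Figure D2:**
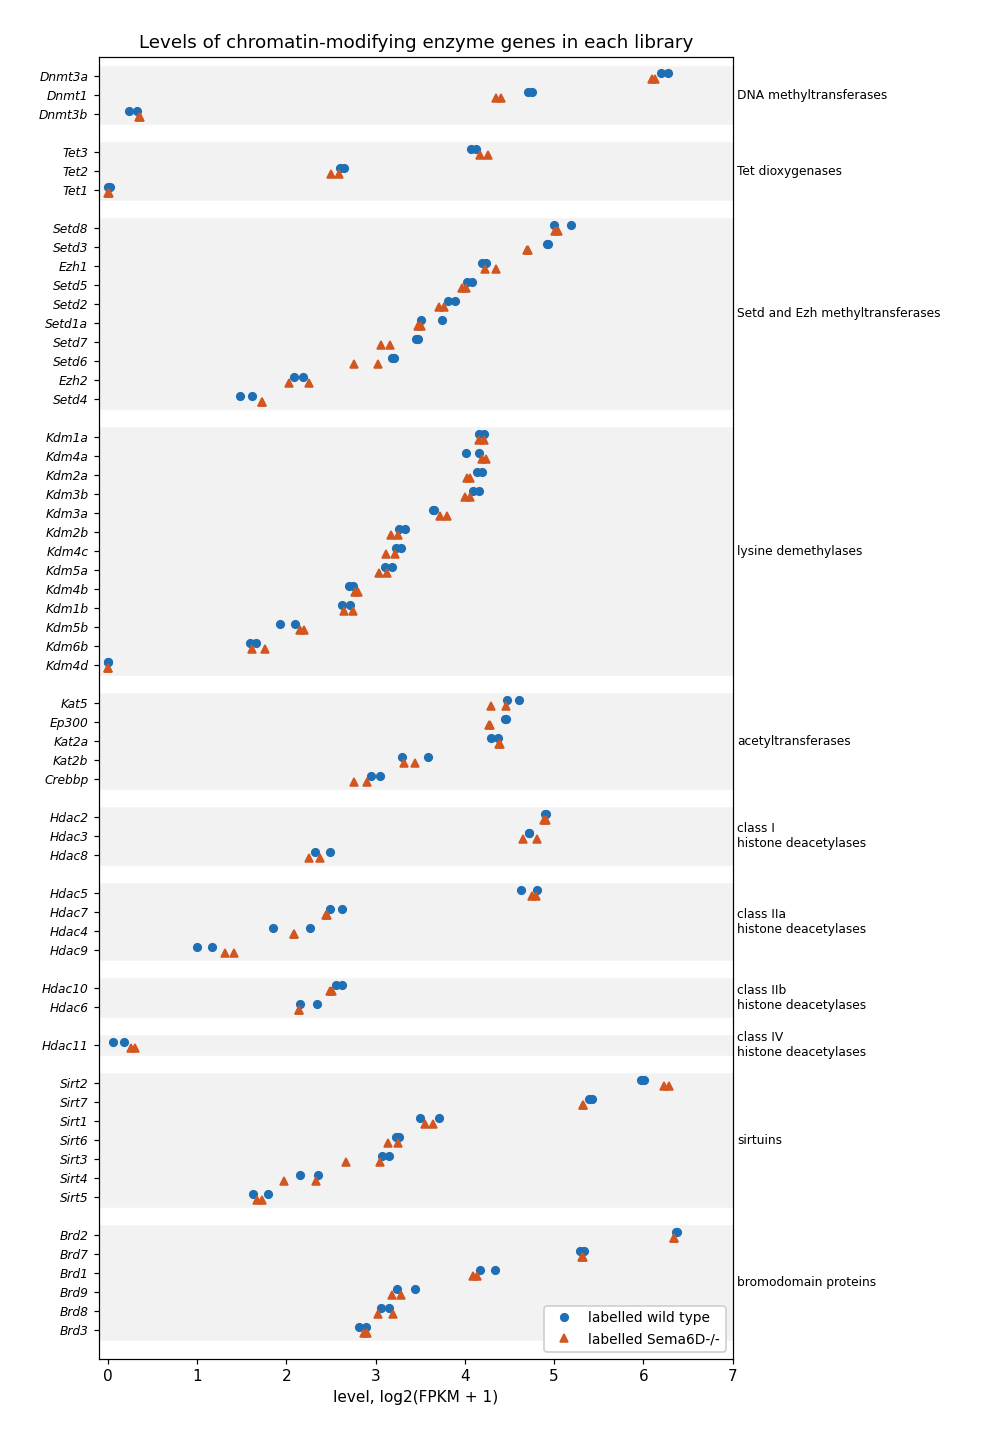
Level in each library of the 58 members but 1 bromodomain gene that is not shown, in log2(FPKM + 1), grouped by enzyme class and ordered by mean level. Circles are the 2 libraries labelled wild type and triangles the 2 labelled Sema6D-/-. The markers of Dnmt1 and Sirt2 stand apart, as do those of Setd7 and Setd3, which were not called. Many others overlap or lie side by side.

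DNA methyltransferases held the lower call. Dnmt1, on chromosome 9 from 20907206 to 20959888 (mm10), copies methylation onto new DNA strands after replication. It was at 25.1 and 25.9 FPKM in the libraries labelled wild type and at 19.4 and 20.1 in those labelled Sema6D-/-, which do not overlap. The mean fell from 25.5 ± 0.55 to 19.8 ± 0.50 FPKM, a difference of -0.35 ± 0.06 (SE) in log2(FPKM + 1) with a 95% interval of -0.50 to -0.21 (adjusted p = 0.0225). About 947 to 1418 fragments per library lie behind these values. Without any 1 library the difference stayed between -0.378 and -0.329 and the call was lost (adjusted p from 0.065 to 0.158), as it was without an intensity trend (0.0513).

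Dnmt1 is known to follow cell division, so genes of cycling cells are given beside it. Mki67, a marker of dividing cells, was at 2.23 and 2.25 against 1.06 and 1.0 FPKM (adjusted p = 0.0307), and Pcna, the sliding clamp of replication, at 157 and 149 against 238 and 251 (adjusted p = 0.00308; both named after their values were seen). Thus Mki67 was lower and Pcna higher in the libraries where Dnmt1 was lower. Of 15 tested genes of the cycling list 1 was higher and 2 lower, with a median difference of -0.292. The summed level was 253 and 244 against 319 and 324 FPKM, and Pcna, the gene called higher, made up most of that sum in each library. Uhrf1, the protein that brings Dnmt1 to DNA, was at 2.33 and 1.65 against 1.09 and 1.16 FPKM and was not called (adjusted p = 0.138; named after its values were seen). The part of cell division in the difference of Dnmt1 was not tested.

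The other enzymes of DNA methylation were not called. Dnmt3a, which methylates unmarked DNA, was at 72.6 and 76.4 FPKM in the wild type libraries and at 68.8 and 67.7 under Sema6D-/-. These ranges do not overlap, with a difference of -0.12 ± 0.05 (95% interval -0.246 to -0.001, adjusted p = 0.195). Dnmt3b, the related enzyme of early embryos, was listed at 0.182, 0.255, 0.285 and 0.275 FPKM, about 7 to 10 fragments per library. Tet3 was at 16.4 and 15.8 against 17.0 and 18.2 FPKM, higher in both libraries labelled Sema6D-/- (difference 0.13 ± 0.07, adjusted p = 0.311). Tet2, a regulator of myeloid cells, was at 5.05 and 5.28 against 5.01 and 4.66 (difference -0.08 ± 0.09, adjusted p = 0.639). The 95% intervals were -0.039 to 0.291 for Tet3 and -0.305 to 0.145 for Tet2.

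Upstream sequence is shown for both called genes, because they moved in opposite directions, with the CpG pairs on which Dnmt1 acts in capitals. Each is from RefSeq (GRCm38.p6), 5′ to 3′ on the gene's strand. Exons named here are those annotated in GENCODE, not in RefSeq. The Sirt2 stretch on the plus strand, chr7:28766641-28766734, is the part of the 250 bases before the start that no annotated exon covers. The Dnmt1 stretch on the minus strand, chr9:20952980-20953229, lies before the start nearest the body of the gene among those without an annotated exon in the window.
Sirt2: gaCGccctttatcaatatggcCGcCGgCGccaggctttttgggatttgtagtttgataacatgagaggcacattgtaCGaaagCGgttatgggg
Dnmt1: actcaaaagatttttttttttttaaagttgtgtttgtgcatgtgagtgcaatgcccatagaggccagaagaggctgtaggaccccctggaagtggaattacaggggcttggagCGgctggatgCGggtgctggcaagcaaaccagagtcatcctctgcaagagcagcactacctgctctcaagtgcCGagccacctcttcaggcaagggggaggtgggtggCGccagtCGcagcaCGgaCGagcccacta
The Sirt2 stretch holds 6 CpG pairs in 94 bases, of 13 in its whole window, and the Dnmt1 stretch 7 in 250. The windows before the other annotated starts of Dnmt1 hold 2 and 26 pairs, the latter partly in a Dnmt1 exon. Over whole windows of 250 bases the median was 19 pairs for the 73 windows of 49 members and 6 for all 32851 windows. The letters of STAT6 (TTCNNNNGAA), of the interferon-stimulated response element (GAAANNGAAA), of E2F (TTTCCCGC or TTTGGCGC), of ATF4 (TGATGCAA) and of CRE (TGACGTCA) were searched on both strands. None was in the windows of Sirt2 or Dnmt1, and 5.85%, 2.98%, 0.895%, 0.417%, 0.791% and 1.55% of all windows held them, in that order. Among members with a window, the STAT6 letters were in windows of Hdac4 and Sirt6, the interferon letters in Brd7 and Kat5, and TTTCCCGC in Brd7 and Sirt4. Kdm6b had no window among those used, so its upstream bases were not searched. The data do not show which start is used.

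Histone methyltransferases of the Setd and Ezh families gave 0 calls of 10 by limma, with 3 at an unadjusted p under 0.05, and 1 call (Setd7) in 3 of the alternative fits. Setd7, on chromosome 3 from 51515318 to 51560823, adds a single methyl group to histone H3 and to other proteins. It was at 10.1 and 9.92 FPKM in the wild type libraries and at 7.95 and 7.33 under Sema6D-/-, and these libraries do not overlap. The difference of -0.35 ± 0.08 (95% interval -0.542 to -0.156) was close in size to that of Dnmt1 and missed the threshold (adjusted p = 0.0512). It passed with robust variance estimation (adjusted p = 0.0383), with a mean of at least 5 FPKM (0.0482) and with a pseudocount of 0.1 (0.0458).

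Setd3, which methylates a histidine of actin, was at 29.2 and 29.4 against 25 and 25.2 FPKM. Replicates lay close together and the labels apart, with a difference of -0.22 ± 0.05 (95% interval -0.345 to -0.089, adjusted p = 0.0607). Its annotated span overlaps that of the gene Ccnk, and the strand setting of the counting is not given in the sources used here. Spans of other members, such as Brd2, Brd7, Setd6 and Sirt3, also overlap those of protein-coding genes. Setd6, known to methylate the NF-kappaB subunit RelA, was at 8.26 and 8.08 against 7.15 and 5.74 FPKM (difference -0.31 ± 0.11, adjusted p = 0.17; named after its values were seen). Setd8, now Kmt5a, methylates histone H4 in dividing cells and was at 35.6 and 30.9 against 31.3 and 32.1, with overlap (difference -0.06 ± 0.08, adjusted p = 0.672). The remaining members were named after their values were seen. Setd1a, Setd2 and Setd5 had means of 11.4 and 10.3, 13.4 and 12.4, and 15.6 and 14.8 FPKM under the labels wild type and Sema6D-/-, and Setd4 had 1.94 and 2.3.

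Ezh1 and Ezh2, the alternative catalytic subunits of Polycomb repressive complex 2, overlapped between the labels. Ezh1 was at 17.3 and 17.9 against 17.7 and 19.3 FPKM, and Ezh2, the form of dividing cells, at 3.25 and 3.54 against 3.78 and 3.08. The intervals of the difference were -0.104 to 0.24 and -0.298 to 0.312. Among 8 tested partners of this complex 1 was lower, Jarid2, which guides it to DNA: 10.5 and 11.5 against 8.09 and 8.41 FPKM (difference -0.38 ± 0.08, adjusted p = 0.0423). Aebp2, another accessory subunit, was at 45.5 and 41.3 against 38.2 and 36.5 (adjusted p = 0.122). The call of Jarid2 was lost without any 1 library (highest adjusted p = 0.236).

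Lysine demethylases gave 0 calls of 12 tested by limma, 0 at an unadjusted p under 0.05 and 0 in every alternative fit. Kdm6b, on chromosome 11 from 69398508 to 69420367, was at 2.17 and 2.02 FPKM in the libraries labelled wild type and at 2.07 and 2.39 in those labelled Sema6D-/-. The labels overlap, and the difference was 0.06 ± 0.12 with a 95% interval of -0.245 to 0.365 (adjusted p = 0.802). About 114 to 137 fragments per library lie behind these values. The interval holds differences in either direction and does not give the smallest difference that the test could have called. Its sign turned to -0.012 without Sema6D-/- replicate 2. Kdm6b ranked 52 of 58 members by mean level, below all other tested demethylases.

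Genes known to lie around Kdm6b in the IL-4 response did not all move in the same libraries. Stat6, its inducer, was at 79.9 and 80.0 against 80.8 and 80.3 FPKM (adjusted p = 0.906), and Irf4, its target in alternative activation, at 13.3 and 14.7 against 11.8 and 13.3 (adjusted p = 0.377; both named after their values were seen). Of 14 genes on the list of IL-4 activation 4 were higher and 1 lower (35.7% called, against 9.72% of all genes tested). This list was written with earlier results of these data known. The lower gene, Ccl22, was at 24.8 and 31.9 against 10.2 and 14.2 FPKM (adjusted p = 0.0201, named after its values were seen). Retnla, a secreted marker of alternative activation, was at 443 and 645 against 1986 and 1837 FPKM (difference 1.84 ± 0.17, adjusted p = 0.00545). Pparg, the lipid-sensing receptor of these cells, was at 80.1 and 89.3 against 113 and 114 (difference 0.42 ± 0.06, adjusted p = 0.0184). Both Retnla and Pparg lost their calls without either library labelled Sema6D-/- (highest adjusted p of 0.0742 and 0.139), and with those libraries left out in turn the list held 0 and 1 calls.

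The largest difference of a demethylase was 0.159, that of Kdm5b. Kdm1a, which removes methyl groups by a flavin reaction and not by the JmjC domain of the other families, was at 16.9 and 17.6 against 17.6 and 16.9 FPKM, with a difference of -0.001 (95% interval -0.155 to 0.152). Kdm4a was at 15.1 and 16.8 against 17.9 and 17.3 (difference 0.14 ± 0.07, adjusted p = 0.328), and Kdm2a at 17.3 and 16.6 against 15.3 and 15.7 (difference -0.12 ± 0.06, adjusted p = 0.289). The labels do not overlap in Kdm4a or Kdm2a, which lay on opposite sides of 0. The remaining members were named after their values were seen. Kdm3a, Kdm4b and Kdm5b were higher in both libraries labelled Sema6D-/- and Kdm2b, Kdm3b and Kdm4c lower in both, with differences from -0.097 to 0.159, and Kdm1b and Kdm5a overlapped. In all, 4 of 12 lay higher and 4 lower without overlap (66.7%, against 56.2% of all genes tested), with a median difference of 0.012. Of 10 other JmjC proteins Jarid2 alone was called, and Jmjd6 was at 15.2 and 13.6 against 16.3 and 15.6 FPKM (adjusted p = 0.33).

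**Figure D3:**
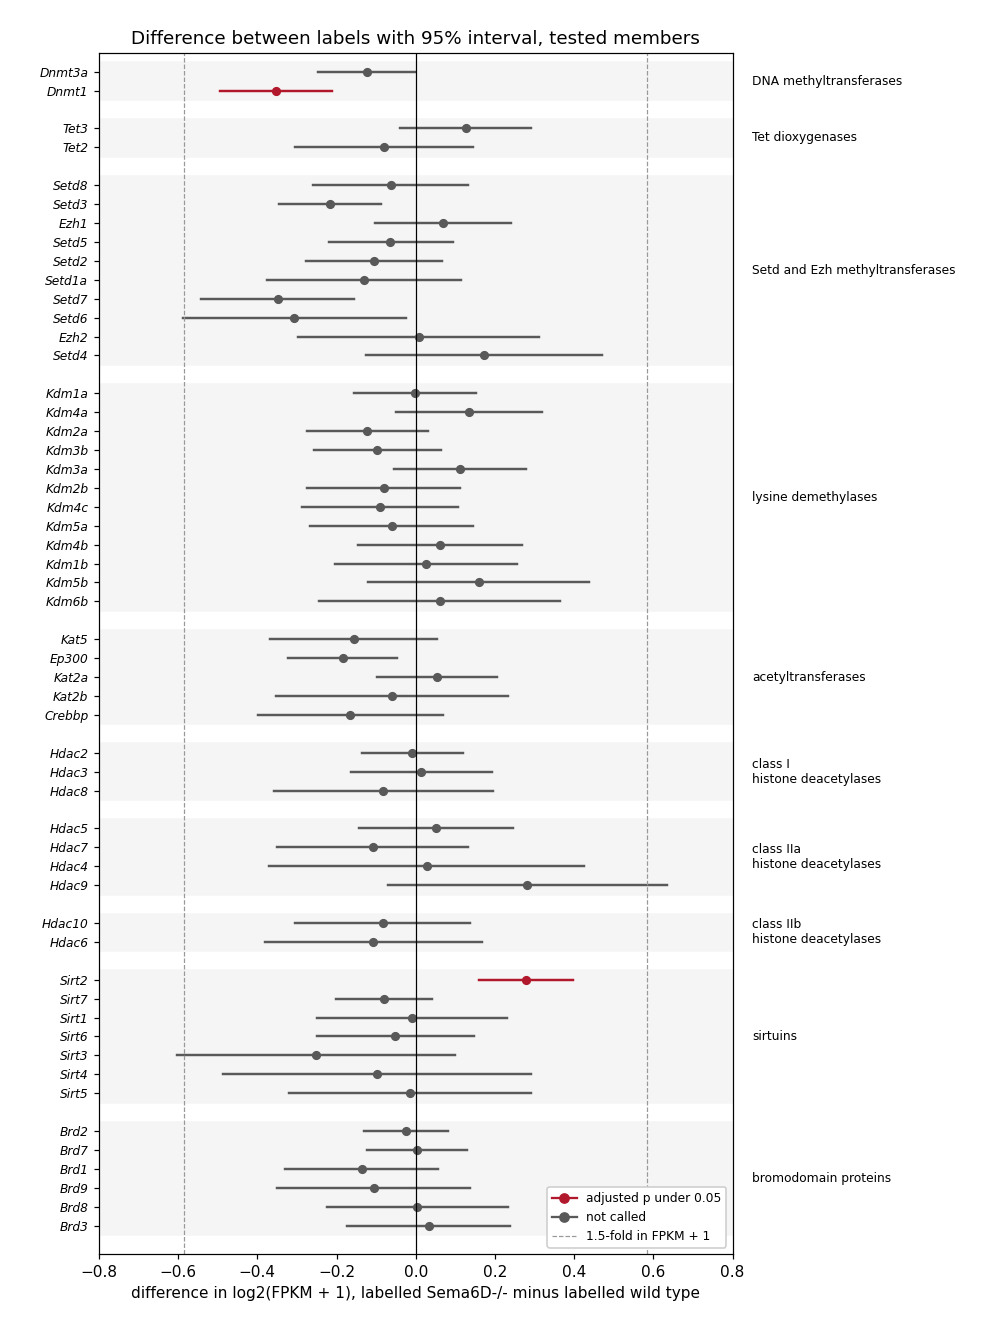
Difference in log2(FPKM + 1), labelled Sema6D-/- minus labelled wild type, for the 54 tested members but 1 bromodomain gene that is not shown, by enzyme class. Points are limma estimates, bars their 95% intervals, red marks an adjusted p under 0.05 and dashed lines 1.5-fold; the intervals of Dnmt1 and Sirt2 lie on opposite sides of 0, and the intervals of Hdac9, Setd6 and Sirt3 cross the dashed lines.

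Acetyltransferases gave 0 calls of 5 by limma, with 1 at an unadjusted p under 0.05 and 0 in every alternative fit. Ep300, the coactivator p300, which acetylates histones at enhancers, was at 20.9 and 21.0 against 18.4 and 18.3 FPKM. Its replicates differed by little and the labels did not overlap, with a difference of -0.18 ± 0.06 (95% interval -0.323 to -0.047, adjusted p = 0.11). Its paralog Crebbp was at 6.74 and 7.25 against 6.49 and 5.77, also without overlap (difference -0.17 ± 0.09, adjusted p = 0.343; named after its values were seen). Kat5, the Tip60 enzyme, was at 23.3 and 21.2 against 18.6 and 21.1 (difference -0.16 ± 0.08, adjusted p = 0.322). The paralogs Kat2a and Kat2b had means of 19.1 and 19.9 and of 9.92 and 9.43 FPKM, both with intervals across 0. Of 21 tested partners and other acetyltransferases 1 was lower, Hat1, which acetylates newly made histone H4: 34.5 and 37.7 against 27.3 and 27.5 FPKM (difference -0.38 ± 0.06, adjusted p = 0.0228). It lost the call without wild type replicate 2 or either library labelled Sema6D-/- (highest adjusted p = 0.157). Ncoa3, a coactivator of nuclear receptors, was at 24.2 and 24.4 against 21.8 and 21.4 (adjusted p = 0.134).

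Classical histone deacetylases gave 0 calls of 9 tested by limma, 0 at an unadjusted p under 0.05 and 0 in every alternative fit. The class I enzymes work in corepressor complexes. Hdac2 was at 28.8 and 29.1 against 28.5 and 29.0 FPKM, with overlap and an interval of -0.136 to 0.118. Hdac3, the enzyme of the NCoR complex and a known brake on alternative activation, was at 25.3 and 25.4 against 27.1 and 24.2, with both libraries labelled wild type between those labelled Sema6D-/- (95% interval -0.164 to 0.192). Hdac8 was at 3.98 and 4.6 against 4.21 and 3.78, with overlap.

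Class IIa enzymes, which shuttle between nucleus and cytoplasm, differed widely in level from each other. Hdac5 was at 27.1 and 23.7 against 25.9 and 26.7 FPKM, and Hdac7 at 5.17 and 4.61 against 4.42 and 4.49. Hdac9 was at 1.24 and 1.0 against 1.67 and 1.48, higher in both libraries labelled Sema6D-/-, from about 74 to 110 fragments per library (difference 0.28 ± 0.14, adjusted p = 0.29). Hdac4 averaged 3.2 and 3.24 FPKM (named after its values were seen). In class IIb, Hdac6, the tubulin deacetylase, was at 4.07 and 3.46 against 3.42 and 3.41, and Hdac10, the polyamine deacetylase, at 4.87 and 5.15 against 4.72 and 4.61, neither called. Hdac11, the only class IV enzyme, was listed at 0.132, 0.043, 0.192 and 0.232 FPKM, about 1 to 5 fragments per library. Of 17 corepressor subunits 1 was lower, Sap30 of the Sin3 complex: 40.0 and 39.9 against 28.3 and 32.8 FPKM (difference -0.38 ± 0.08, adjusted p = 0.0423; lost without any 1 library, highest adjusted p = 0.158). Tbl1xr1 of the NCoR complex was at 13.7 and 12.9 against 11 and 11.4 (adjusted p = 0.111).

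Sirtuins, which consume NAD to remove acyl groups, held the higher call. Sirt2, on chromosome 7 from 28766752 to 28788665, is mainly cytoplasmic and deacetylates tubulin as well as histone H4. It was at 61.6 and 63.1 FPKM in the libraries labelled wild type and at 74.3 and 77.4 in those labelled Sema6D-/-, without overlap. The mean rose from 62.4 ± 1.1 to 75.9 ± 2.2 FPKM, a ratio of 1.22 and a difference of 0.28 ± 0.05 (95% interval 0.159 to 0.398, adjusted p = 0.0267). About 1190 to 1415 fragments per library lie behind it. With 1 library left out the difference was 0.249 to 0.308 and the call was lost each time (adjusted p from 0.0681 to 0.15), as it was without a filter (0.0512) and without an intensity trend (0.0823).

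Next to Sirt2, Nfkbib was not called, and Gm19897 averaged under 1 FPKM and was not tested. Nfkbib, which has an exon on the other strand within the 250 bases before Sirt2, was at 16.5 and 16.0 against 14.2 and 16.5 FPKM (adjusted p = 0.622), and Gm19897, a noncoding gene that overlaps Sirt2, was listed at 0.234 to 0.451 in the 4 libraries (both named after their values were seen). Sirt7, a nucleolar enzyme, was at 41.8 and 40.8 against 38.9 and 39.1, lower without overlap and not called (difference -0.08 ± 0.05, adjusted p = 0.374). The other sirtuins were named after their values were seen. Sirt1, the nuclear enzyme, averaged 11.2 and 11.1 FPKM and Sirt6 8.49 and 8.17. The mitochondrial enzymes Sirt3, Sirt4 and Sirt5 averaged 7.66 and 6.32, 3.77 and 3.48, and 2.28 and 2.25, with 5.36 in Sema6D-/- replicate 2 the lowest of the 4 values of Sirt3. Sirt2 was the only 1 of 7 sirtuins with a difference above 0.

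Bromodomain proteins gave 0 calls of 7 by limma, with 1 at an unadjusted p under 0.05 and 0 in every alternative fit. Brd2 was at 81.9 and 81.7 against 80.5 and 80.3 FPKM: the libraries did not overlap, yet the difference of -0.025 (95% interval -0.131 to 0.081, adjusted p = 0.763) was small against the spread limma assigns to genes of this level. Brd7, a subunit of a SWI/SNF remodeller, was at 39.5 and 38.0 against 38.7 and 38.9, with an interval of -0.124 to 0.129 and a sign that turned after median-of-ratios scaling and quantile normalization. Brd1, Brd3, Brd8 and Brd9 averaged 18.1 and 16.3, 6.22 and 6.38, 7.61 and 7.64, and 9.14 and 8.41 FPKM (named after their values were seen).

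Each list of other chromatin genes held 0 or 1 call by limma, from 0% to 12.5% of its tested genes. Of all genes tested, 9.72% were called. Among 13 genes on the list for the COMPASS methyltransferases of histone H3 there were 0 calls by limma, 3 at an unadjusted p under 0.05 and 1 with robust variance estimation. Mll2, a catalytic subunit, was at 7.1 and 6.59 against 5.16 and 4.96 FPKM (difference -0.37 ± 0.09, adjusted p = 0.0579), and Ncoa6 at 13.4 and 12.8 against 11.6 and 11.4 (adjusted p = 0.178). Of 18 other tested histone methyltransferases 0 were called, with 4 at an unadjusted p under 0.05 and 1 call with robust variance estimation. Suv420h2, which methylates histone H4 in heterochromatin, was at 13.2 and 12.5 against 10.0 and 8.08 (adjusted p = 0.059), and the arginine methyltransferase gene Prmt5 at 11.8 and 10.6 against 14.0 and 14.0 (adjusted p = 0.0745). Of 8 tested readers and partners of DNA methylation 1 was higher, Gadd45b, a stress-induced gene linked to DNA demethylation: 38.0 and 42.7 against 63.1 and 60.0 FPKM (difference 0.60 ± 0.07, adjusted p = 0.00963). Gadd45b lost the call without either library labelled Sema6D-/- (highest adjusted p = 0.0981). Gadd45a was at 10.2 and 8.98 against 14.3 and 12.5 (difference 0.44 ± 0.10, adjusted p = 0.0529).

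**Figure D4:**
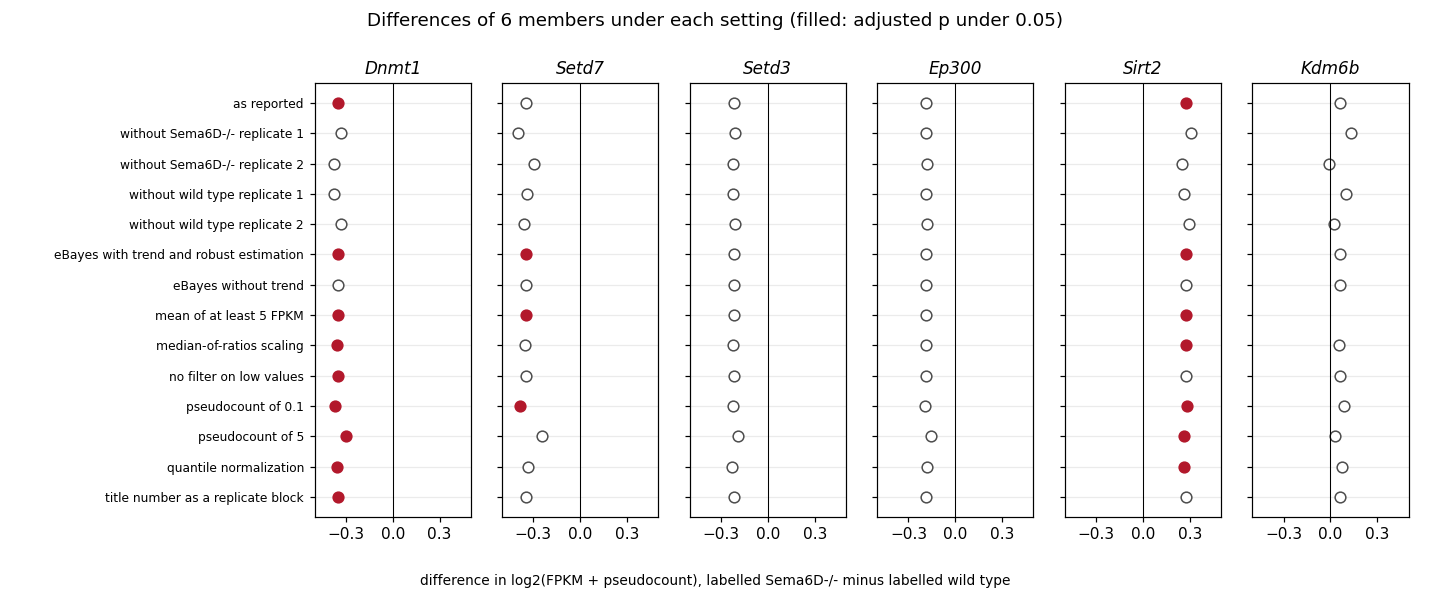
Difference of 6 members under each setting, in log2(FPKM + pseudocount), labelled Sema6D-/- minus labelled wild type, filled where the adjusted p is under 0.05. Dnmt1, Setd7, Setd3 and Ep300 stay below 0 and Sirt2 above 0 in each, Kdm6b lies near 0, and none of the 6 is called with 1 library left out; Kdm6b has no value with a mean of at least 5 FPKM.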

How the data were processed

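RNA came from 4 libraries of macrophages after IL-4, prepared, per the labels' protocols, with the SureSelect kit of Agilent that keeps strand. The authors deposited FPKM values normalized between libraries by Cuffnorm 2.2.1, and TopHat2 2.0.13, Bowtie2 2.2.3, SAMtools 0.1.19 and build mm10 are named too, per the submitters' processing notes. For the annotation, strand setting and shared reads, the choice is not given in the sources used here. Of 23284 symbols, 25 had no value.

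Members and gene lists were chosen with earlier results of these data known. Named genes were Kdm6b, called members, the 2 most abundant and the smallest p of each class, and 2 per list by p; others are marked. Limma 3.58.1 in R 4.3.3 (lmFit, eBayes with trend, two-sided) tested log2(FPKM + 1) for genes averaging 1 FPKM or more, with Benjamini-Hochberg adjustment over all 10115 genes and a threshold of 0.05. Differences on this scale understate those of low genes. The test was checked on simulated data, with added differences larger than that of any member, so the check does not cover differences of the members' size. Depth came from the steps of low FPKM values of genes with 1 GENCODE transcript, and fragment numbers use the longest transcript, so both are approximate. Positions and sequences are from RefSeq GRCm38.p6, the assembly mm10 names; 57 members matched by symbol and Setd8 by synonym. Some genes that the rule or the marker lists take are not reported here by name, but stay in the counts.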

Additional observations from a re-analysis of the deposited data

How the results depend on the processing

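With 1 library left out, genes called among all tested were 72 to 276 higher and 87 to 290 lower, against 486 and 497, and members called were 0 to 0 in either direction, against 1 and 1. DNA methyltransferases and sirtuins, and the Polycomb partner, corepressor and other JmjC lists, then held 0 calls each. The acetyltransferase partner and DNA methylation lists held 0 to 1 and the IL-4 activation list 0 to 6, against 5. A group of 1 library is assumed there to vary like the other.

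Without an intensity trend, the test called 261 genes higher and 327 lower, and with no filter on low values 256 and 248. Members called higher, with the sirtuins, were 0 in both. Members called lower, with the DNA methyltransferases, were 0 without a trend (Dnmt1, adjusted p = 0.0513). The Polycomb partner, corepressor, other JmjC and acetyltransferase partner lists held 0 calls in both and the IL-4 list 1. Quantile normalization left 0 on the Polycomb and JmjC lists, which share Jarid2. With robust estimation, a mean of at least 5 FPKM or a pseudocount of 0.1, members called lower were 2 and Setd and Ezh enzymes 1 (Setd7), and the DNA methylation list held 2. Robust estimation gave 1 call each on the COMPASS and other methyltransferase lists. The cause of these moves was not tested.

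The numbers in the sample titles do not pair the libraries: deviations of same-numbered libraries correlated at -0.018 across genes. With the title number as a replicate block, 300 genes were higher, members called higher and sirtuins were 0 (Sirt2, adjusted p = 0.053), the Polycomb partner, corepressor and JmjC lists 0 and the DNA methylation list 2.

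Signs turned only in differences near 0. Brd7 was -0.001 after median-of-ratios scaling and -0.006 after quantile normalization, and Kdm1a 0.003 after the latter. With 1 library left out the ranges were -0.026 to 0.031 for Brd7, -0.028 to 0.025 for Kdm1a, -0.02 to 0.003 for Hdac2, -0.067 to 0.094 for Hdac3, -0.043 to 0.144 for Hdac5, -0.168 to 0.003 for Hdac8, -0.012 to 0.132 for Kdm6b and -0.162 to 0.036 for Setd8. Over all alternatives, 465 differences of named genes kept direction and side of the threshold, 40 lost it, 9 gained it and 13 turned sign. Depth limits Hdac11, Dnmt3b and Tet1, with at most 10 fragments per library.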

Other observations

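Several chromatin genes are listed under older symbols that the choice by symbol does not take, and they were picked after their values were seen. Mll1, Mll2 and Mll3 encode methyltransferases of histone H3. Mll1 was at 5.32 and 4.9 FPKM in the wild type libraries and at 4.43 and 4.52 under Sema6D-/- (adjusted p = 0.358), Mll3 at 4.99 and 5.24 against 4.22 and 4.23 (0.193), Mll5 at 15.6 and 16.0 against 14.6 and 15.2 (0.468) and Wbp7, now Kmt2b, at 9.18 and 8.69 against 8.04 and 8.13 (0.352). With Mll2, given above, limma called 0 of these 5 genes, with 2 (Mll2 and Mll3) at an unadjusted p under 0.05. RefSeq lists Mll2 as an older name of both Kmt2b and Kmt2d, and Kmt2b has its own entry here as Wbp7.

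The Myst acetyltransferases, now Kat genes, were not called. Myst1 was at 12.9 and 11.2 against 10.9 and 12.5 FPKM (adjusted p = 0.845), Myst2 at 14.1 and 15.3 against 14.0 and 13.8 (0.553) and Myst3 at 14.7 and 14.2 against 12.7 and 12.8 (0.188). The demethylase gene Jhdm1d was at 15.6 and 16.8 against 14.5 and 15.3 (0.383).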
